A study of Mus musculus with 12 samples.

Results

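The genes described are 34 cell cycle and DNA replication genes of the mouse, measured by RNA-seq at 3 noise levels in the cochlea, which holds the sensory cells of hearing. They are the rows of a raw read count table of 35496 genes whose Ensembl identifiers carry the listed symbols; each of the 34 symbols had 1 row, and the 35th entry of the list, a remark on the exclusion of Ube2c, is no gene. The 12 libraries form 3 groups of 4. Mice of the group at 70 dB SPL (sound pressure level), which the titles call ambient, and mice of the groups at 94 dB and at 105 dB were all FVB/NCrl mice at postnatal day 60, awake during 30 minutes of noise, and RNA was taken from the cochlea straight after it. The comparisons were 94 dB against 70 dB, 105 dB against 70 dB and 105 dB against 94 dB; each pair of them shares a group of libraries. Whether each library stands for 1 animal or a pool is not given in the labels, and p-values therefore measure a spread between libraries that may in part be technical.

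A dividing cell copies its DNA in S phase and separates the copies in mitosis, and each step has its own proteins. Before S phase, Cdc6 loads the hexameric MCM helicase (Mcm2 to Mcm7) onto replication origins, Pcna then clamps polymerases to DNA, and Rrm1, Rrm2, Tyms and Tk1 make deoxynucleotides. Cyclins E, A and B activate kinases such as Cdk1 in turn, and in mitosis Plk1, the Aurora kinases, the checkpoint protein Bub1, the kinetochore and spindle motors act on the chromosomes. E2F factors and the DREAM and MuvB complexes switch most of these genes together. In the mature mammalian cochlea hair cells and supporting cells are known as cells that no longer divide, while blood precursors are among the cells that divide in an adult animal. In bulk tissue RNA, fewer cells of a type and less RNA per cell cannot be told apart.

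The promoters shown here are those of members that differed between 94 dB and 70 dB and held a match to a site through which E2F or the DREAM and MuvB complexes are known to act, since members of this set went up and down side by side. Promoter sequence came from RefSeq for GRCm38.p6, which had an entry for 28 of the 34 members; Mcm4, Ccne2, Ccna2, Aurkb, Kif20a and Tpx2 had none. In the 250 bases before each gene's start, on both strands, 3 motifs were searched by letters: the cell cycle homology region (CHR, TTTGAA), the CCAAT box (CCAAT), and an E2F site (TTTCCCGC, TTTGGCGC, TTTCGCGC or TTTGCCGC). CHR letters stood in 7 of the 28 promoters and in 16.0% of all 32851 promoters of the table, CCAAT letters in 23 of 28 and 33.8%, and E2F letters in 5 of 28 and 1.9%. Capitals mark the matches, and E2F matches on opposite strands overlap each other in Mcm6 and Mcm5. Mcm6 (chr1:128359706-128359955, minus strand) and Mki67 (chr7:135716380-135716629, minus strand) were lower at 94 dB than at 70 dB, and Mcm5 (chr8:75109259-75109508, plus strand) and Cdc20 (chr4:118437344-118437593, minus strand) were higher.
Mcm6: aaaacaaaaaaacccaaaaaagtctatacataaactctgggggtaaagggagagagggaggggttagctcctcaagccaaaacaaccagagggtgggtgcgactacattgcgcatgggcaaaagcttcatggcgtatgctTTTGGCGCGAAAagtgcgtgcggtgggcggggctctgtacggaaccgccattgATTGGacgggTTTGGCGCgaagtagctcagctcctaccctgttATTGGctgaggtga
Mki67: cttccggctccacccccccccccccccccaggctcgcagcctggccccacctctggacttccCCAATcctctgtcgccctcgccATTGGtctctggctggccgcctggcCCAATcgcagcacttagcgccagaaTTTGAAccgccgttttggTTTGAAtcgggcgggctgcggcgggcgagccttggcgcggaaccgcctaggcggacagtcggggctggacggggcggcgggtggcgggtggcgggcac
Mcm5: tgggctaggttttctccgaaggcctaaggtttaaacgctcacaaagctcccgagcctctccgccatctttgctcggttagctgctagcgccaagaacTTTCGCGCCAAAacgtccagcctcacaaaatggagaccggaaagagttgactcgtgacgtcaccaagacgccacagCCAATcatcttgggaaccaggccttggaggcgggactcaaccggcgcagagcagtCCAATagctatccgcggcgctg
Cdc20: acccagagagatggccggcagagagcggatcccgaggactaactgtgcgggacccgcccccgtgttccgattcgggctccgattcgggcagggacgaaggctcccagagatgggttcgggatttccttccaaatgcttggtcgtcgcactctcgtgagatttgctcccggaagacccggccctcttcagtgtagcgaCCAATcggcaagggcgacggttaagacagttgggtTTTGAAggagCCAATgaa
The Mcm6 promoter holds E2F letters between 110 and 99 and between 47 and 40 bases before the start, and the Mcm5 promoter between 153 and 142 bases before it. Mki67 has CHR letters at 116 to 111 and at 98 to 93 bases, and Cdc20 at 18 to 13 bases. Promoters with E2F letters and promoters with CHR letters were thus found on each side of the 94 dB difference, and a match in letters is a description of the sequence, not of a bound site. With a trend on GC content and exon length removed, Mcm5 alone of these genes kept an adjusted p under 0.05 at 94 dB against 70 dB.

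Total counts per library were 31141706 to 42317781, and the 34 members held 0.269% to 0.387% of them, and the lowest count of any member in any library was 526. Levels are in CPM (counts scaled to a common library size with edgeR's TMM factors, as in counts-per-million values). Differences are given as log2 fold changes, also called log2 differences here, of edgeR's quasi-likelihood fit over 19497 genes in all 12 libraries, called where the p-value adjusted by Benjamini-Hochberg over those genes is under 0.05; all 34 members passed the filter on low counts. Of the 94 dB libraries, replicates 3 and 4 stood apart by their mitochondrial share: mitochondrially encoded transcripts held 2.68% and 2.73% of their counts, against 3.53% and 3.59% in replicates 1 and 2 and 4.43% to 5.68% in the other groups, and haemoglobin held 2.90% and 2.95%, against 1.75% and 2.07% in replicates 1 and 2 and 1.68% to 2.89% in the other groups. Markers of the labelled tissue were present, with all 8 hair cell markers above a floor of 3 counts in every library, from 0.309 CPM for Slc26a5 to 39.4 CPM for Otof as means over the 12 libraries.

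All 34 genes were expressed in the cochlea at each noise level. Levels per kilobase were divided by all annotated exon bases of a gene, over all its transcripts. Genes with many annotated bases, such as Rrm1 with 11012 against 2771 for Rrm2, may thus stand too low, and the ranking is approximate. By this measure the mean over the 12 libraries was highest for Pcna at 103 CPM per kb, followed by Rrm2 (66.1), Ccnb2 (43.9), Mcm7 (42.8) and Mki67 (41.5). It was lowest for Cenpf (2.51), Cenpe (3.77) and Kif23 (4.32), while the median over all genes tested was 4.02 CPM per kb. Pcna stood at percentile 97.9 of the tested genes and Cenpf at percentile 40. Within groups the coefficient of variation had a median over members of 9.02% at 70 dB, 12.1% at 94 dB and 9.66% at 105 dB.

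Group means had their highest value at 105 dB in 28 members and at 94 dB in 6, and in none at 70 dB. In 16 members the order from low to high was 94, 70 and 105 dB, in 12 it was 70, 94 and 105 dB, and in 6 it was 70, 105 and 94 dB. Members tended to be high or low in the same libraries: 105 dB replicate 2 had the highest value of all 12 libraries in 21 members and the highest of its group in 30, 70 dB replicate 2 the highest of its group in 29, and 94 dB replicate 2 in 24. The lowest value of all 12 libraries belonged to 94 dB replicate 3 in 12 members. The summed level of the 34 genes was 3066, 3281, 2919 and 2773 CPM at 70 dB, 2800, 3287, 2742 and 2925 CPM at 94 dB, and 3270, 3909, 3369 and 3537 CPM at 105 dB. By this sum the 105 dB libraries overlapped the other groups only through replicate 1, which lay below replicate 2 of each of the other groups.

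**Figure D1:**
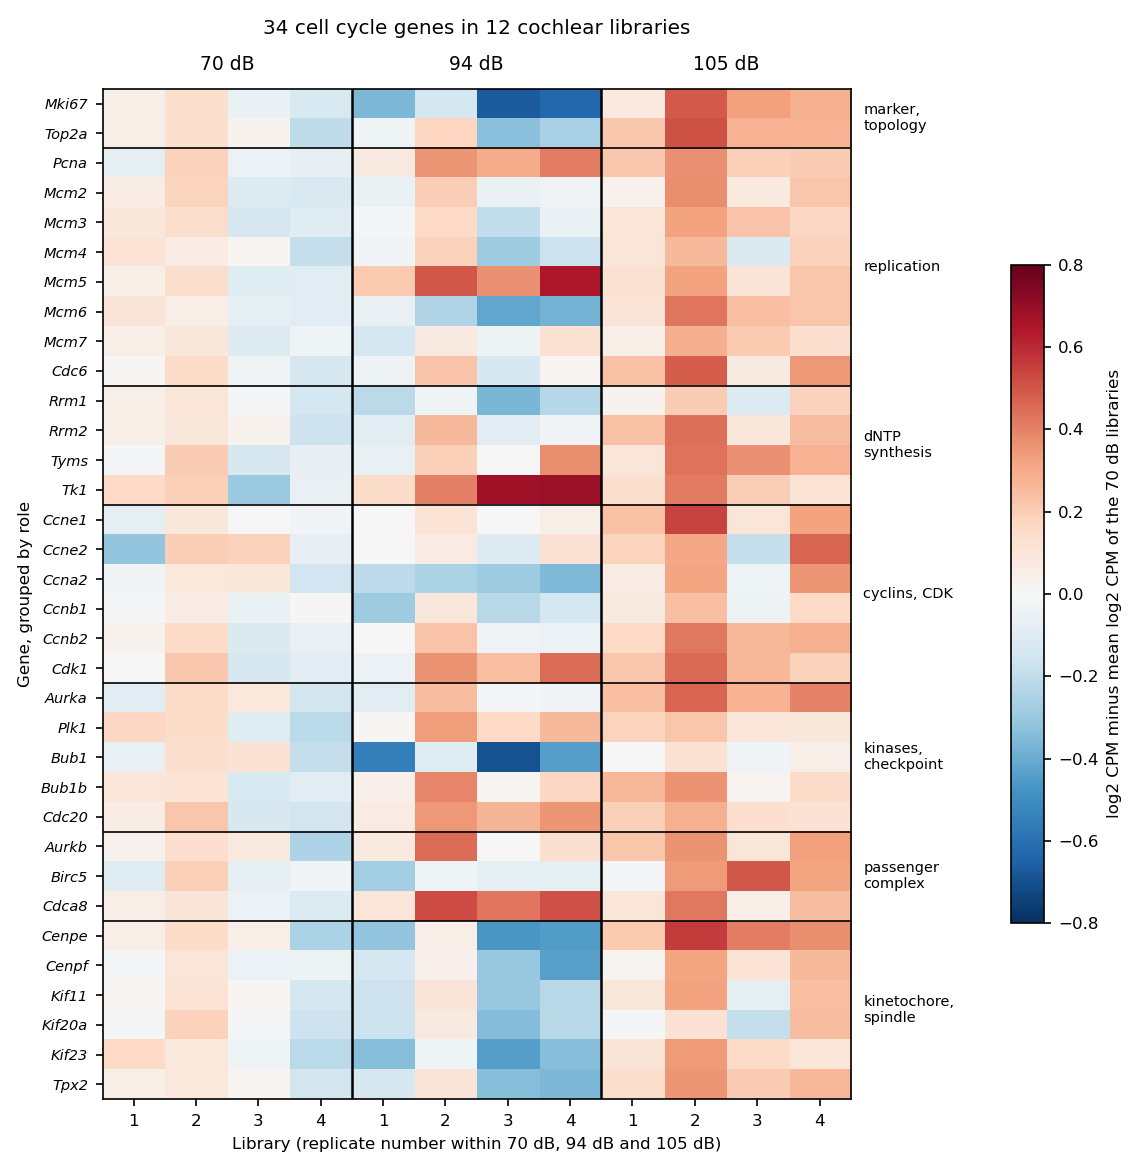
Levels of the 34 genes (rows, grouped by role) in the 12 libraries (columns, ordered by noise level), as log2 CPM minus the mean log2 CPM of the 4 libraries at 70 dB; red is higher and blue lower. At 94 dB red rows such as Mcm5, Tk1 and Cdca8 stand beside blue rows such as Mki67 and Bub1, and at 105 dB most cells are red, most strongly in replicate 2.

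At 94 dB against 70 dB 5 members rose and 5 fell, among them genes that act side by side. Mcm5, Tk1, Cdca8, Pcna and Cdc20 rose, with log2 differences of 0.26 to 0.48. Mki67, Bub1, Kif23, Ccna2 and Mcm6 fell, with log2 differences of -0.44 to -0.27. Of all genes tested 26.1% were called in this comparison, 13.9% higher and 12.2% lower, so the share of members called was near that of genes at large. The median log2 fold change was 0.007 over the 34 members and -0.018 over all genes, and 18 members lay above 0 and 16 below, where 47.8% of all genes lay above 0. With upper-quartile factors in place of TMM, 12 lay above 0 and 21 below, 4 members rose and 6 fell, and of all genes 2329 rose and 2847 fell, against 2716 and 2369 with TMM. After a trend on GC content and exon length was removed, 5 members rose and none fell, where 1982 of all genes rose and 1139 fell. Without 94 dB replicates 3 and 4 together, Mcm5 was the 1 member called, beside 1610 of all genes.

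All 34 members had, at 105 dB against 70 dB, a log2 fold change above 0, between 0.03 and 0.38, and none passed the threshold. Their median log2 fold change was 0.20, against -0.004 over all 19497 genes, of which 49.3% lay above 0 and 1.62% were called (1.11% higher and 0.508% lower). At an unadjusted p under 0.05 there were 20 members, against 18.7% of all genes. DESeq2's Wald test called 4 members, Aurka, Ccnb2, Ccne1 and Cenpe, and 891 of all genes, where edgeR called 316. In 7 members (Top2a, Pcna, Ccne1, Ccnb2, Aurka, Cenpe and Tpx2) each 105 dB library lay above each 70 dB library, which held for 5.78% of all genes; 5.03% lay wholly below, and no member did. The smallest adjusted p was 0.055, for Aurka.

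In the comparison of 105 dB with 94 dB, 16 members rose and none fell, where 17.3% of all genes tested were called, 8.06% higher and 9.23% lower. The largest log2 fold changes were those of Mki67 (0.74), Cenpe (0.67) and Mcm6 (0.52). The median log2 fold change over the 34 members was 0.24 and over all genes 0.002, and 28 members lay above 0, against 50.2% of all genes. At an unadjusted p under 0.05 there were 22 members, against 31.5% of all genes. In 9 members all 105 dB libraries lay above all 94 dB libraries, which held for 10.5% of all genes. Because the 94 dB libraries enter this comparison and the one against 70 dB, the genes lowest at 94 dB have opposite signs in them by construction.

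**Figure D2:**
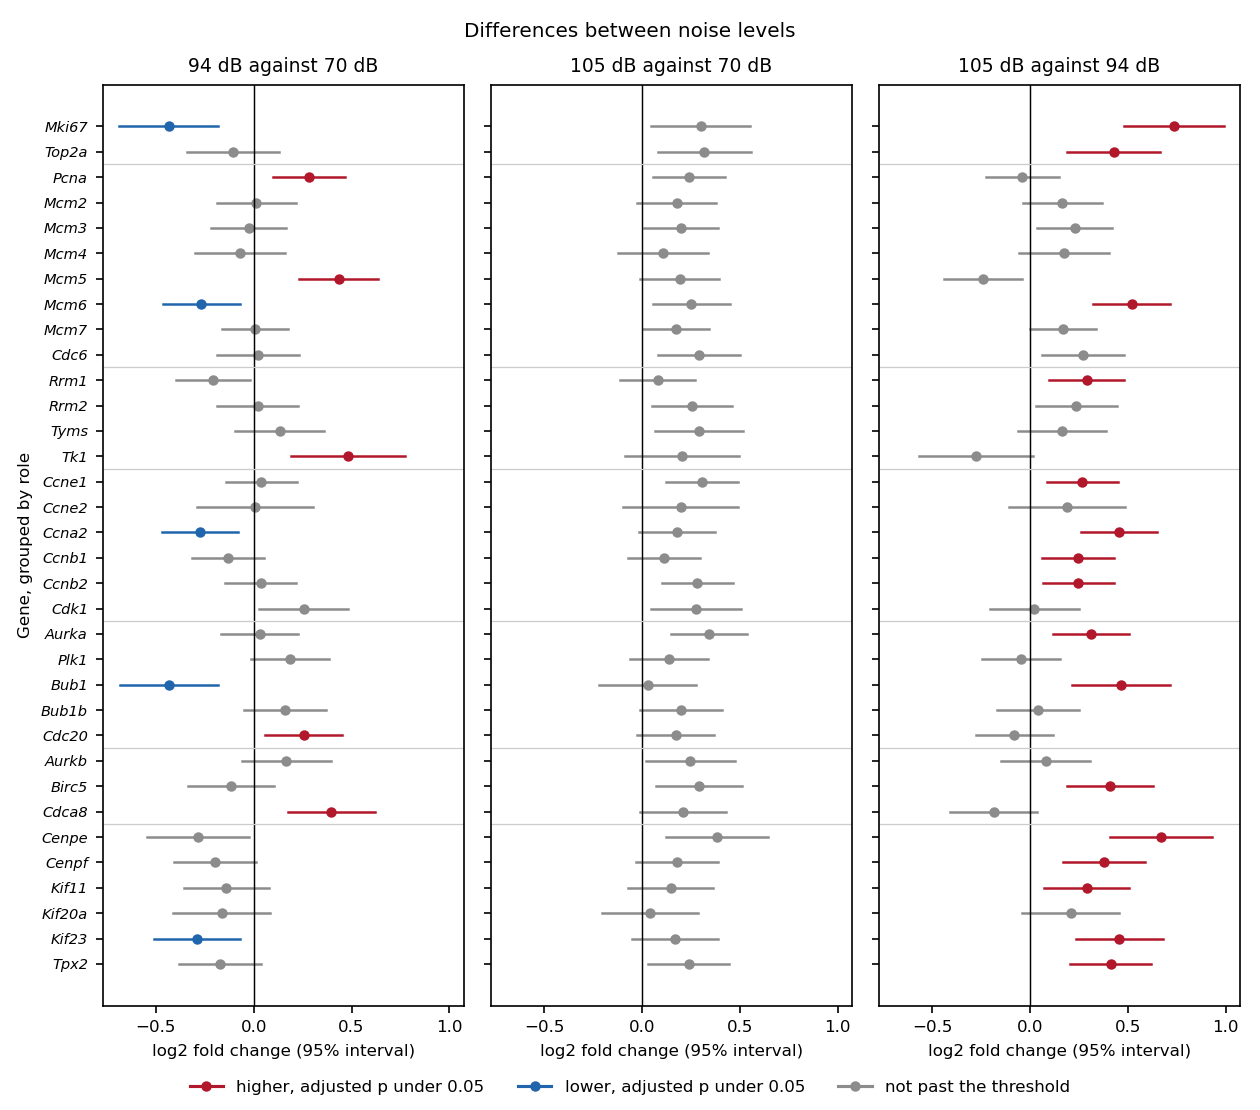
log2 fold change of each of the 34 genes with its 95% interval in the 3 comparisons, grouped by role; red and blue mark genes higher and lower at an adjusted p under 0.05. At 94 dB against 70 dB the points lie on both sides of 0, at 105 dB against 70 dB all 34 lie above 0 in grey, and at 105 dB against 94 dB 16 are red.

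Mki67 encodes Ki-67, the coat protein of mitotic chromosomes that is used as a marker of dividing cells, and Top2a encodes the topoisomerase that untangles the copied chromosomes. Mki67 (chr7:135689784-135716361, minus strand) had 435, 461, 405 and 386 CPM at 70 dB, 328, 382, 265 and 273 CPM at 94 dB, and 444, 592, 529 and 512 CPM at 105 dB. The 94 dB libraries all lay below the 70 dB libraries and the 105 dB libraries all above the 94 dB libraries, while those at 105 dB and 70 dB overlapped. The log2 fold change was -0.44 (SE 0.112, adjusted p = 0.0106) at 94 dB against 70 dB, 0.30 (SE 0.112, adjusted p = 0.177) at 105 dB against 70 dB, and 0.74 (SE 0.113, adjusted p = 0.00148) at 105 dB against 94 dB. Top2a had 175, 184, 172 and 147 CPM at 70 dB, 165, 190.2, 134 and 141 CPM at 94 dB, and 196, 241, 204 and 204 CPM at 105 dB. Its 105 dB libraries lay above all others, yet only the difference from 94 dB passed, with a log2 difference of 0.43 (SE 0.105, adjusted p = 0.0126); against 70 dB it was 0.32 (SE 0.105, adjusted p = 0.134).

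**Figure D3:**
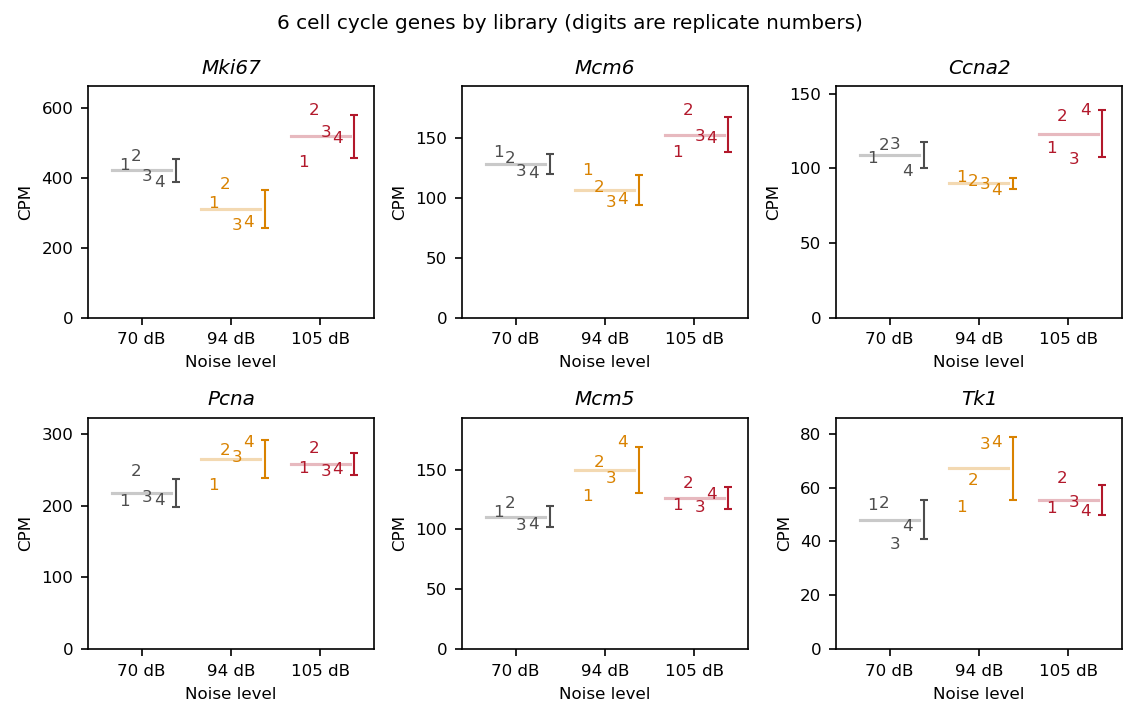
CPM (vertical axis, from 0) of 6 genes in each library at 70, 94 and 105 dB; digits are replicate numbers, horizontal lines group means and bars the SD of 4 libraries. Mki67, Mcm6 and Ccna2 have their lowest mean at 94 dB, and Pcna, Mcm5 and Tk1 their highest.

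Among the 8 licensing and fork genes, 2 rose and 1 fell at 94 dB against 70 dB, where 13.9% of all genes rose and 12.2% fell. At 105 dB against 70 dB 0 passed (0 by DESeq2), and 6 had an unadjusted p under 0.05, against 18.7% of all genes. At 105 dB against 94 dB 1 rose, where 8.06% of all genes did. Pcna (chr2:132249162-132253314, minus strand), the sliding clamp of DNA polymerases, had 206, 248, 211 and 208 CPM at 70 dB, 228, 277, 267 and 288 CPM at 94 dB, and 252, 280.4, 248 and 250.4 CPM at 105 dB. The groups at 94 dB and 70 dB overlapped, since 94 dB replicate 1 lay below 70 dB replicate 2, and the log2 fold change was 0.28 (SE 0.082, adjusted p = 0.0196). Against 70 dB the 105 dB group did not pass, with 0.24 (adjusted p = 0.147), although its lowest library stood just above the highest at 70 dB. Pcna has a pseudogene with a near-identical stretch, Pcna-ps2, and how reads that fit both were counted is not given in the sources used here, so its level is uncertain.

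Mcm5 and Mcm6, subunits of the same helicase ring, moved in opposite directions at 94 dB. After a trend on GC content and exon length was removed, Mcm5 still passed (0.41 (adjusted p = 0.00479)) and Mcm6 did not (-0.17 (adjusted p = 0.158)). Mcm5 (chr8:75109569-75128439, plus strand) had 114, 122, 103 and 104 CPM at 70 dB, 128, 156, 142 and 173 CPM at 94 dB, and 120.3, 138, 119 and 129 CPM at 105 dB. Its 94 dB libraries all lay above those at 70 dB, with a log2 difference of 0.43 (SE 0.089, adjusted p = 0.00259), and overlapped those at 105 dB. Mcm6 (chr1:128331590-128359664, minus strand) had 138, 133, 122 and 121 CPM at 70 dB, 123, 109, 96.1 and 98.6 CPM at 94 dB, and 138, 173, 151 and 149.6 CPM at 105 dB. It was low at 94 dB, where replicate 1 alone reached the 70 dB range, with a log2 difference of -0.27 (SE 0.087, adjusted p = 0.0321) against 70 dB. All 105 dB libraries lay above all 94 dB libraries, with a log2 difference of 0.52 (SE 0.087, adjusted p = 0.00212). The remaining members of this role, Mcm2, Mcm3, Mcm4, Mcm7 and the helicase loader Cdc6, passed in no comparison, and their log2 fold changes at 94 dB against 70 dB were between -0.07 and 0.02. Their group means ran from 53.8 CPM for Cdc6 at 70 dB to 205 CPM for Mcm7 at 105 dB. Mcm7 is uncertain, since it has a near-identical pseudogene, Gm5487, and shares exon bases with Ap4m1 on the opposite strand.

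Of the 4 genes of deoxynucleotide synthesis, Tk1 passed at 94 dB against 70 dB, where 26.1% of all genes did. Rrm1 passed at 105 dB against 94 dB, where 17.3% did. Tk1 (chr11:117815526-117826092, minus strand), the thymidine kinase of S phase, had 53.2, 54.3, 38.8 and 45.7 CPM at 70 dB, 52.7, 62.8, 76.1 and 76.8 CPM at 94 dB, and 52.3, 63.4, 54.5 and 51.2 CPM at 105 dB. The 94 dB values were spread widely, with replicates 3 and 4 high and replicate 1 inside the 70 dB range, and the log2 fold change was 0.48 (SE 0.129, adjusted p = 0.0146). Rrm1, the large subunit of ribonucleotide reductase, had 156, 162, 150.2 and 137 CPM at 70 dB, 130.2, 147, 117 and 129 CPM at 94 dB, and 154, 174, 140.3 and 172 CPM at 105 dB. The groups overlapped in all comparisons; the log2 fold change was 0.29 (SE 0.084, adjusted p = 0.0276) at 105 dB against 94 dB and -0.21 (adjusted p = 0.0781) at 94 dB against 70 dB. Rrm2, the small subunit and the highest of this role per kilobase of annotated exon, had 177, 182, 174 and 152 CPM at 70 dB, 161, 205, 161 and 168 CPM at 94 dB, and 201, 232, 182 and 203 CPM at 105 dB. It passed in no comparison, with log2 differences of 0.02 (adjusted p = 0.894) at 94 dB against 70 dB and 0.26 (adjusted p = 0.16) at 105 dB against 70 dB, and it too has a near-identical pseudogene (Gm48455). Tyms, the thymidylate synthase, had means of 36.4 CPM at 70 dB, 39.8 CPM at 94 dB and 44.6 CPM at 105 dB and did not pass either.

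Of the cyclins, Ccna2 alone passed at 94 dB against 70 dB, where 26.1% of all genes did. Ccna2, Ccnb1, Ccnb2 and Ccne1 rose at 105 dB against 94 dB, where 8.06% of all genes rose. Ccna2 (chr3:36564865-36572150, minus strand), cyclin A of S phase and G2, had 107, 115, 116 and 97.7 CPM at 70 dB, 94.0, 91.2, 89.3 and 85.2 CPM at 94 dB, and 113, 135, 106 and 139 CPM at 105 dB. Its 94 dB libraries lay below all others and close together, with a log2 difference of -0.28 (SE 0.086, adjusted p = 0.0264) against 70 dB, and the 105 dB group rose over it by 0.46 (SE 0.086, adjusted p = 0.00347). The mitotic cyclin Ccnb2 had 63.3, 68.9, 57.2 and 59.5 CPM at 70 dB, 61.9, 72.6, 60.8 and 60.0 CPM at 94 dB, and 69.2, 83.2, 74.6 and 75.7 CPM at 105 dB. The 105 dB libraries all lay above those at 70 dB, where the log2 fold change of 0.28 (adjusted p = 0.0856) did not pass, and overlapped those at 94 dB, where 0.25 (adjusted p = 0.0445) did.

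Ccnb1, the other B cyclin, had 63.3, 66.8, 61.6 and 64.4 CPM at 70 dB, 52.6, 68.1, 54.8 and 57.96 CPM at 94 dB, and 67.4, 75.6, 62.3 and 71.5 CPM at 105 dB. Its groups overlapped, and its log2 fold change at 105 dB against 94 dB was 0.25 (adjusted p = 0.0464); copies in Ccnb1-ps, Gm12856 and Gm8416 make it uncertain. Ccne1, cyclin E of the G1 to S step, had 41.9, 46.8, 44.2 and 43.4 CPM at 70 dB, 43.9, 47.6, 44.2 and 45.4 CPM at 94 dB, and 51.7, 64.1, 47.1 and 55.03 CPM at 105 dB. All its 105 dB libraries lay above those at 70 dB (0.31 (adjusted p = 0.0671)), and against 94 dB the log2 fold change was 0.27 (adjusted p = 0.0321). Cdk1, the kinase that cyclins A and B activate, and Ccne2 passed in no comparison. Cdk1 averaged 56.4 ± 6.15 CPM at 70 dB, 67.4 ± 9.57 CPM at 94 dB and 68.4 ± 5.87 CPM at 105 dB (SD, n = 4 each), so that unlike its partner Ccna2 it was not low at 94 dB (0.26 (adjusted p = 0.0724) against 70 dB); whether the differences of these 2 genes differ was not tested. Ccna2 shares 12.5% of its exon bases with Exosc9 and Ccne2 17.4% with Ints8 on the opposite strand, whose reads cannot be told apart from theirs without strand.

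Among mitotic kinases and checkpoint genes, Bub1 fell and Cdc20 rose at 94 dB against 70 dB, where 12.2% of all genes fell and 13.9% rose. Neither passed after a trend on GC content and exon length was removed (-0.24 (adjusted p = 0.134) for Bub1 and 0.05 (adjusted p = 0.724) for Cdc20). Bub1 (chr2:127801122-127831865, minus strand), the checkpoint kinase at kinetochores, had 25.8, 29.6, 29.2 and 23.6 CPM at 70 dB, 18.4, 25.1, 16.6 and 19.9 CPM at 94 dB, and 26.96, 29.1, 26.4 and 27.9 CPM at 105 dB. Replicates 1, 3 and 4 at 94 dB lay below all 70 dB libraries, replicate 2 did not, and the log2 fold change was -0.43 (SE 0.111, adjusted p = 0.00935). All 105 dB libraries lay above all 94 dB libraries (0.46 (adjusted p = 0.0105)) and overlapped the 70 dB libraries. Cdc20 (chr4:118432901-118437352, minus strand), the activator of the anaphase-promoting complex that the checkpoint holds back, had 55.1, 61.5, 48.4 and 47.4 CPM at 70 dB, 55.2, 67.1, 63.7 and 67.5 CPM at 94 dB, and 60.3, 64.2, 57.9 and 57.2 CPM at 105 dB. The groups overlapped, and its log2 fold change at 94 dB against 70 dB was 0.26 (SE 0.087, adjusted p = 0.0398). Aurka, the spindle pole Aurora kinase, had 37.3, 44.2, 42.02 and 35.9 CPM at 70 dB, 37.3, 47.2, 39.4 and 39.1 CPM at 94 dB, and 46.99, 54.8, 48.1 and 52.3 CPM at 105 dB. Its 105 dB libraries lay above all at 70 dB, with 0.34 (adjusted p = 0.055) against 70 dB, and 0.31 (adjusted p = 0.0221) against 94 dB. Plk1 and Bub1b passed in no comparison, with group means of 34.9 CPM (Bub1b, 70 dB) to 47.96 CPM (Plk1, 94 dB).

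Cdca8, Birc5 and Aurkb encode 3 subunits of the chromosomal passenger complex, which corrects chromosome attachment and acts in cytokinesis. Of these Cdca8 alone passed at 94 dB against 70 dB, where 26.1% of all genes did, and whether the differences of the subunits of the complex differ was not tested. Cdca8 (chr4:124918465-124939311, minus strand), its borealin subunit, had 51.1, 52.95, 47.6 and 45.7 CPM at 70 dB, 52.6, 70.6, 66.2 and 70.4 CPM at 94 dB, and 52.7, 66.03, 51.0 and 58.4 CPM at 105 dB. At 94 dB replicate 1 lay at the top of the 70 dB range and the other 3 above it, with a log2 difference of 0.40 (SE 0.098, adjusted p = 0.0078). Birc5, its survivin subunit, had 75.0, 91.8, 76.3 and 79.2 CPM at 70 dB, 66.2, 78.3, 76.2 and 76.4 CPM at 94 dB, and 79.3, 102, 113 and 100 CPM at 105 dB. It did not pass at 94 dB against 70 dB (-0.12 (adjusted p = 0.399)), and all 105 dB libraries lay above all 94 dB libraries, with a log2 difference of 0.41 (SE 0.097, adjusted p = 0.0103). The kinase subunit Aurkb passed in no comparison, with means of 35.4 CPM at 70 dB, 39.8 CPM at 94 dB and 42.03 CPM at 105 dB.

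The 6 kinetochore and spindle genes all had log2 fold changes below 0 at 94 dB against 70 dB, of which 1 passed. Of all genes tested 47.8% lay above 0 there and 12.2% were called lower. At 105 dB against 94 dB 5 of 6 rose, where 8.06% of all genes did. With a trend on GC content and exon length removed, Cenpf (0.04) and Kif11 (0.07) lay above 0 at 94 dB against 70 dB, and none of the 6 passed. Cenpf and Kif11 then no longer passed at 105 dB against 94 dB either. Kif23 (chr9:61915905-61946774, minus strand), the kinesin of the central spindle, had 38.7, 36.7, 33.9 and 29.8 CPM at 70 dB, 27.3, 33.8, 25.5 and 27.3 CPM at 94 dB, and 37.2, 43.8, 38.5 and 37.02 CPM at 105 dB. At 94 dB replicate 2 reached into the 70 dB range and the other 3 lay below it, with a log2 difference of -0.29 (SE 0.098, adjusted p = 0.0387), and the 105 dB group lay wholly above the 94 dB group (0.46 (adjusted p = 0.00628)). Cenpe, the kinetochore motor that moves chromosomes to the spindle equator, had 32.2, 34.3, 32.1 and 26.04 CPM at 70 dB, 24.9, 32.1, 22.5 and 22.7 CPM at 94 dB, and 35.9, 45.6, 41.2 and 40.1 CPM at 105 dB. Its 105 dB libraries lay above all others, with 0.67 (SE 0.116, adjusted p = 0.00254) against 94 dB and 0.38 (adjusted p = 0.103) against 70 dB.

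Tpx2, which activates Aurka on spindle microtubules, had 72.2, 74.03, 70.6 and 62.9 CPM at 70 dB, 63.8, 74.8, 55.2 and 54.5 CPM at 94 dB, and 76.9, 89.1, 80.4 and 83.8 CPM at 105 dB. It too was highest in the 105 dB libraries, and passed against 94 dB (0.41 (adjusted p = 0.00804)) but not against 70 dB (0.24 (adjusted p = 0.184)). Cenpf, a large kinetochore protein, had 38.2, 41.3, 37.3 and 37.6 CPM at 70 dB, 35.2, 39.7, 31.3 and 28.6 CPM at 94 dB, and 39.2, 48.1, 41.6 and 46.2 CPM at 105 dB, with overlap between groups and 0.38 (adjusted p = 0.0122) at 105 dB against 94 dB. Kif11, the motor that pushes spindle poles apart, had 55.9, 59.5, 55.9 and 49.98 CPM at 70 dB, 49.3, 59.3, 44.8 and 47.2 CPM at 94 dB, and 58.7, 68.98, 52.4 and 65.1 CPM at 105 dB, likewise with overlap and 0.29 (adjusted p = 0.0477). Kif20a passed in no comparison, with means of 21.6 CPM at 70 dB, 19.3 CPM at 94 dB and 22.3 CPM at 105 dB; 29.3% of its exon bases overlap Cdc23 on the opposite strand.

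Of the 10 members called at 94 dB against 70 dB, 5 (Bub1, Cdca8, Mcm5, Mki67 and Tk1) kept an adjusted p under 0.05 when any of the 12 libraries was left out. The others lost it without the following libraries, with the adjusted p in parentheses. Pcna lost it without 70 dB replicates 3 (0.0511), 4 (0.0516), 94 dB replicate 4 (0.0658). Cdc20 lost it without 70 dB replicates 3 (0.106), 4 (0.108), 94 dB replicates 2 (0.0867), 3 (0.0793), 4 (0.11). Ccna2 lost it without 70 dB replicates 2 (0.0692), 3 (0.0834), 94 dB replicates 3 (0.062), 4 (0.0757). Mcm6 lost it without 70 dB replicates 1 (0.0908), 2 (0.0714), 94 dB replicates 2 (0.0558), 3 (0.107), 4 (0.0964). Kif23 lost it without 70 dB replicates 1 (0.123), 2 (0.0881), 3 (0.068), 94 dB replicates 1 (0.0836), 3 (0.119), 4 (0.0959), 105 dB replicates 1 (0.054), 4 (0.0529). The number of members called was 5 without 94 dB replicate 4 and 6 without 94 dB replicate 3 or 70 dB replicate 3. Without 94 dB replicates 3 and 4 together all 10 kept their sign and Mcm5 alone passed, with a log2 difference of 0.36 (adjusted p = 0.0362), against -0.25 (adjusted p = 0.178) for Mki67; with these 2 libraries removed 1610 of all genes passed, against 5085 with them.

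Of the 16 members that rose at 105 dB against 94 dB, 10 (Birc5, Bub1, Ccna2, Cenpe, Cenpf, Kif23, Mcm6, Mki67, Top2a and Tpx2) kept the call when any library was left out. The other 6 lost it without the following libraries, with the adjusted p in parentheses. Rrm1 lost its call without 94 dB replicates 3 (0.102), 4 (0.0672), 105 dB replicates 2 (0.0918), 4 (0.0872). Aurka lost its call without 94 dB replicates 1 (0.0529), 3 (0.0697), 4 (0.0654), 105 dB replicates 2 (0.0785), 4 (0.065). Ccne1 lost its call without 94 dB replicates 1 (0.0597), 3 (0.0883), 4 (0.0697), 105 dB replicates 2 (0.126), 4 (0.0758). Ccnb2 lost its call without 70 dB replicate 1 (0.0528), 94 dB replicates 1 (0.0806), 3 (0.126), 4 (0.124), 105 dB replicates 2 (0.146), 3 (0.065), 4 (0.0903). Kif11 lost its call without 70 dB replicates 1 (0.0592), 2 (0.0524), 3 (0.0605), 94 dB replicates 1 (0.0801), 3 (0.153), 4 (0.129), 105 dB replicates 1 (0.0662), 2 (0.156), 4 (0.126). Ccnb1 lost its call without 70 dB replicates 1 (0.0551), 2 (0.0549), 3 (0.0569), 4 (0.0528), 94 dB replicates 1 (0.112), 3 (0.138), 4 (0.0986), 105 dB replicates 1 (0.0717), 2 (0.147), 4 (0.114). Without 94 dB replicate 3, 94 dB replicate 4, 105 dB replicate 2 or 105 dB replicate 4, 10 members were called, and without 94 dB replicate 1, 11 rose and 3 fell (Mcm5, Tk1 and Cdca8). Without 94 dB replicates 3 and 4 together all 16 kept their sign and Mki67 alone passed, with 0.55 (adjusted p = 0.0317); of all genes 217 passed, against 3372 with all libraries.

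For the comparison of 105 dB with 70 dB, single libraries made calls rather than ending them. Aurka passed without 70 dB replicate 2 (adjusted p = 0.0382) or 94 dB replicate 2 (0.0331), Cenpe without 94 dB replicate 2 (0.0443), Birc5 without 105 dB replicate 1 (0.0391), and Ccne1 without 105 dB replicate 3 (0.0272). The median log2 fold change of the members ranged from 0.15 without 105 dB replicate 2, the library with the highest values, to 0.26 without 70 dB replicate 2. All 34 members stayed above 0 except 2 without 70 dB replicate 4 and 1 without 105 dB replicate 4.

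Base composition and exon length moved with the 94 dB difference. In their longest annotated transcript the 5 members that rose had 45.3% to 55.6% GC (median 51.9%), and the 5 that fell 41.0% to 47.3% (median 46.3%). Exon lengths were 1868 to 5198 bases in members that rose and 4083 to 10061 bases in members that fell. Over the 34 members Spearman's rho between the log2 fold change and GC content was 0.591 at 94 dB against 70 dB, 0.093 at 105 dB against 70 dB, and -0.534 at 105 dB against 94 dB; genes share the libraries, so these are descriptions. With exon length rho was -0.474, -0.012 and 0.381 in the same order of comparisons. Over 126 other cell cycle genes rho with GC content was 0.643 at 94 dB against 70 dB.

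With a spline on GC content and on exon length taken out of each library, 5 members rose at 94 dB against 70 dB and none fell. Under the same setting 1982 of the 19497 genes rose and 1139 fell. Mcm5, Tk1, Cdca8 and Pcna kept their calls, with log2 differences of 0.41 (adjusted p = 0.00479), 0.48 (adjusted p = 0.0242), 0.49 (adjusted p = 0.00505) and 0.36 (adjusted p = 0.00715). Cdk1 gained one, with 0.35 (adjusted p = 0.0443). Cdc20 fell short at 0.05 (adjusted p = 0.724), as did Mki67 at -0.28 (adjusted p = 0.0899), Bub1 at -0.24 (adjusted p = 0.134), Mcm6 at -0.17 (adjusted p = 0.158), Ccna2 at -0.16 (adjusted p = 0.18) and Kif23 at -0.14 (adjusted p = 0.337), all with their sign kept. Between 105 dB and 94 dB 11 members were called, all higher at 105 dB, where 914 of all genes were higher and 932 lower. Among the 16 were 9 of them, with 0.64 (adjusted p = 0.00409) for Mki67 and 0.53 (adjusted p = 0.0119) for Cenpe. Between 105 dB and 70 dB none was called and all 34 stayed above 0.

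**Figure D4:**
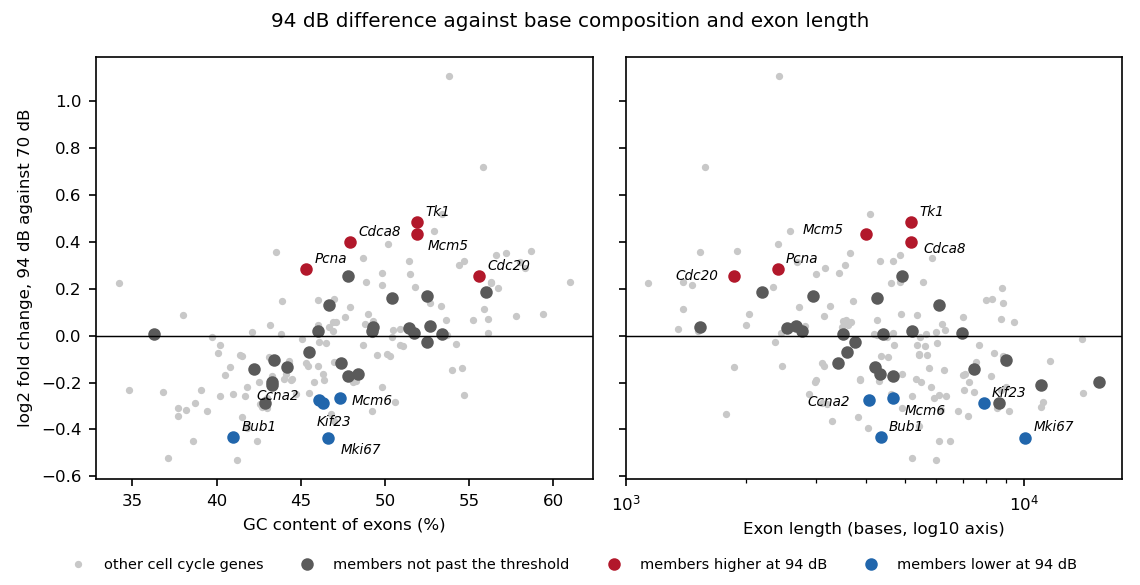
log2 fold change at 94 dB against 70 dB of the 34 members (large points, red higher and blue lower at an adjusted p under 0.05) and of 126 other cell cycle genes (small grey points). The left panel sets it against GC content of the longest annotated transcript in percent (axis labelled exons). The right panel sets it against exon length in bases on a log10 axis. Members that rose lie at 45.3% GC and above, and members that fell at 47.3% GC and below.

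The wider cell cycle machinery was set beside the 34 genes through 127 other genes in 7 lists, of which 126 were tested. At 94 dB against 70 dB 16 rose and 21 fell, where 13.9% of all genes rose and 12.2% fell. The smallest p-values belonged to Cdkn2d, a CDK4 and CDK6 inhibitor that averaged 86.8 ± 14.3 CPM at 94 dB and 52.7 ± 3.17 CPM at 70 dB (SD, n = 4 each), with a log2 difference of 0.72 (SE 0.098, adjusted p = 0.00015); to Rb1, the retinoblastoma protein that restrains E2F (-0.53 (adjusted p = 0.00025)); to Fen1, the flap endonuclease (1.11 (adjusted p = 0.000288)); and to Orc3 of the origin recognition complex (-0.45 (adjusted p = 0.000495)). Fen1 is uncertain, since 78.8% of its exon bases overlap an antisense gene. Orc3 did not pass with the GC and length trend removed (adjusted p = 0.0504). Of 30 kinetochore, condensin, spindle and cytokinesis genes 9 fell and 2 rose, and of 28 polymerase and fork genes 8 rose and 4 fell.

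Of the 126, 1 rose at 105 dB against 70 dB and none fell, where 1.11% of all genes rose. A log2 fold change above 0 was found in 109, against 49.3% of all genes, and the median was 0.14, against -0.004. At an unadjusted p under 0.05 there were 33, against 18.7% of all genes, and DESeq2 called 9, where it called 891 of all genes. The 1 gene was Cdkn1a, the CDK inhibitor p21, which had 149, 141, 149 and 155 CPM at 105 dB against 115, 108, 126 and 102 CPM at 70 dB. Each 105 dB library lay above each 70 dB library, and the log2 fold change was 0.40 (SE 0.075, adjusted p = 0.0101). Against 94 dB, 38 rose at 105 dB and 4 fell, where 8.06% of all genes rose and 9.23% fell. The smallest p-values were those of the spindle motor Kif15 (0.57 (adjusted p = 0.00213)), the kinetochore genes Cenpk (0.68 (adjusted p = 0.00232)) and Ndc80 (0.67 (adjusted p = 0.00254)), and Orc5 of the origin recognition complex (0.40 (adjusted p = 0.00266)). Of 30 kinetochore, condensin, spindle and cytokinesis genes 15 rose and none fell (21 at an unadjusted p under 0.05, against 31.5% of all genes). Of 16 origin and helicase genes 9 rose. Without 94 dB replicates 3 and 4 together 1 of the 126 was called in this comparison, and Kif15 (adjusted p = 0.0567), Ndc80 (0.0661) and Orc5 (0.0689) no longer were.

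Markers of blood precursors were set beside the members, list by list. At 105 dB against 70 dB the log2 fold changes of all 10 erythroid precursor markers lay above 0, and 3 rose (Klf1, Epor and Car1); all 8 myeloid precursor markers lay above 0, and 1 rose (Mpo); and all 6 megakaryocyte markers lay above 0, and 2 rose (Pf4 and Ppbp). Of 10 B cell precursor markers 6 lay above 0 and 4 below, and none passed (3 at an unadjusted p under 0.05). Of all genes 1.11% rose in this comparison. Summed levels at 105 dB were 1570 to 1966 CPM for erythroid precursors, against 1378 to 1622 CPM at 70 dB. For myeloid precursors they were 1325 to 1532 CPM at 105 dB, against 928.6 to 1178 CPM at 70 dB, and for megakaryocytes 1425 to 1529 CPM, against 995.1 to 1145 CPM. The 34 members summed to 3270 to 3909 CPM at 105 dB, against 2773 to 3281 CPM at 70 dB. Hair cell markers summed to 101.2 to 108.4 CPM at 105 dB, against 101.6 to 115.9 CPM at 70 dB. Of 6 markers of haematopoietic stem and progenitor cells 5 lay above 0 and none passed (0 at an unadjusted p under 0.05).

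At 94 dB against 70 dB 4 of the 8 myeloid precursor markers and 3 of the 6 megakaryocyte markers rose, of 10 erythroid precursor markers 2 rose and 2 fell, and of 10 B cell precursor markers 1 rose and 1 fell, where 13.9% of all genes rose and 12.2% fell. All 8 myeloid precursor markers lay above 0 in this comparison, in which 18 members lay above 0 and 16 below. Summed levels at 94 dB were 1360 to 1599 CPM for erythroid precursors, 1108 to 1665 CPM for myeloid precursors and 1043 to 1317 CPM for megakaryocytes. Against 94 dB, 4 of 10 erythroid precursor markers rose at 105 dB and none fell, among them Car1 with a log2 difference of 0.73 (adjusted p = 0.000349). Of the 6 megakaryocyte markers 3 rose and none fell, and of the 10 B cell precursor markers 3 rose and 1 fell. Of the 8 myeloid precursor markers none rose and 1 fell, and 5 lay below 0, with a median log2 fold change of -0.07. Over all genes 8.06% rose and 9.23% fell. No marker of any list was at 0 in any library. The part of these cells in the members' differences was not tested.

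**Figure D5:**
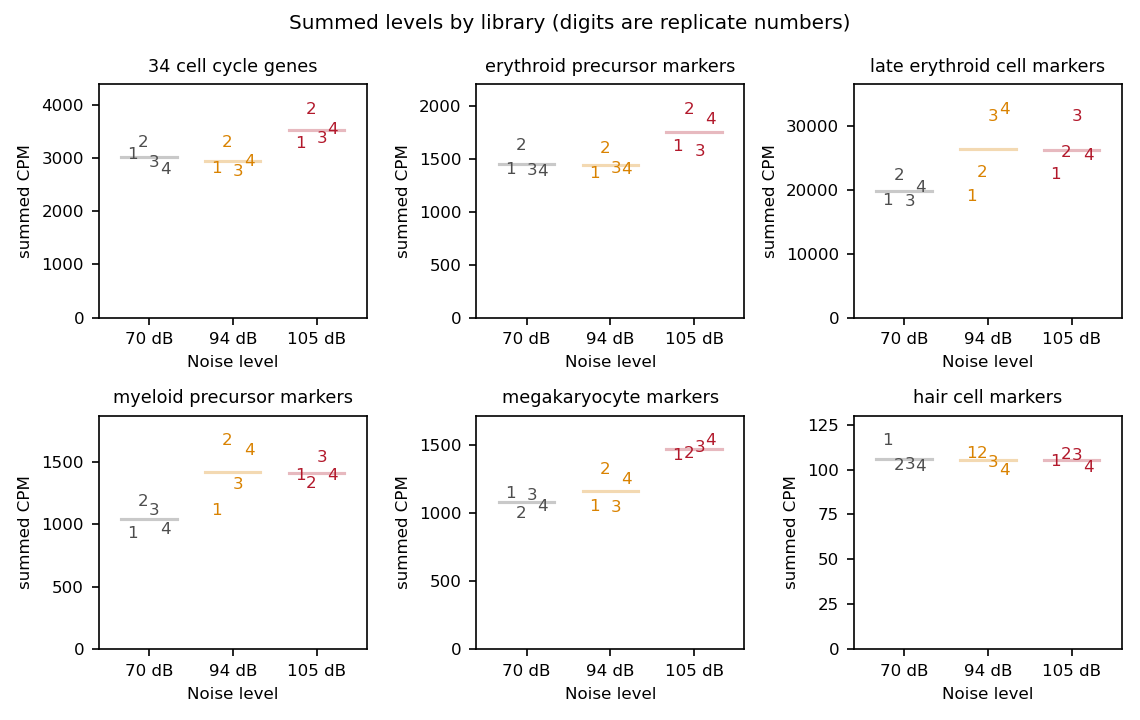
Summed CPM (vertical axis, from 0) in each library at 70, 94 and 105 dB of the 34 cell cycle genes and of marker lists for blood precursors, late erythroid cells, megakaryocytes and hair cells; digits are replicate numbers and lines group means. The 34 genes and the erythroid precursor markers have their highest library in 105 dB replicate 2, and the megakaryocyte sum at 105 dB lies above that of every other library.

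Markers of the cochlear cells themselves were summed as well. Supporting cell markers summed to 1431 to 1536 CPM at 70 dB, 1120 to 1325 CPM at 94 dB and 1403 to 1523 CPM at 105 dB, and stria vascularis markers to 1042 to 1161, 845.6 to 985.3 and 1028 to 1078 CPM at the same levels. The sums of both lists in the 94 dB libraries lay below all others. Single supporting cell markers differed in direction at 94 dB against 70 dB: of 7, Lfng rose by a log2 difference of 0.71 (adjusted p = 4.05e-05) and Fgfr3 by 0.56 (adjusted p = 0.000148), while Gjb2 had -0.41 (adjusted p = 0.000692) and fell. Schwann cell sums were 3093 to 5057 CPM at 70 dB, 2519 to 3488 CPM at 94 dB and 2581 to 3591 CPM at 105 dB, and spiral ganglion neuron sums overlapped throughout at 2516 to 3214 CPM. Bone cell sums (8150 to 11090 CPM over all libraries) and B cell precursor sums (208.9 to 263 CPM) overlapped between all groups too. Single markers under such sums did differ. At 94 dB against 70 dB 1 of 7 neuron markers fell, and of 8 bone cell markers 1 rose and 1 fell, where 13.9% of all genes rose and 12.2% fell. At 105 dB against 70 dB 1 bone cell marker fell, where 0.508% of all genes did, and no neuron marker passed. Cartilage sums were 559 to 719.9 CPM at 70 dB, 640.4 to 720.7 CPM at 94 dB and 523.1 to 637.8 CPM at 105 dB, so that the 105 dB libraries lay below all 94 dB libraries and both groups overlapped the 70 dB group.

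Mature blood cell markers were summed in the same way. Neutrophil marker sums were 7068 to 8790 CPM at 70 dB, 7156 to 14480 CPM at 94 dB and 7536 to 9138 CPM at 105 dB. Late erythroid sums were 18150 to 22250, 18950 to 32540 and 22340 to 31490 CPM at the same levels. T cell sums were 21.9 to 25.6 CPM at 70 dB, 26.9 to 33.6 CPM at 94 dB and 20.3 to 25.3 CPM at 105 dB. Macrophage sums were 344 to 398.5, 422.5 to 506 and 358.5 to 400.9 CPM, endothelial sums 286.2 to 312, 261.8 to 293.7 and 293.8 to 309.4 CPM, and mature B cell sums 74.99 to 127.9, 97.45 to 135.3 and 87.55 to 105.6 CPM at 70, 94 and 105 dB. Their part in the members' differences was not tested either.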

How the data were processed

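RNA-seq counts of 12 cochlear libraries were used, 4 at each of 70, 94 and 105 dB. The deposited table gives raw counts of reads for each gene as whole numbers. The submitters' processing notes name CASAVA, STAR, featureCounts 1.5.0-p3 and mm10. What annotation was used, and how strand and multi-mapped reads were handled, is not given in the sources. Per the labels' protocols, a TruSeq kit of Illumina turned 1 µg of RNA into each library. Symbols, positions, exon length (all annotated exon bases of a gene) and GC content (of its longest transcript) came from GENCODE M21 for GRCm38, and promoters from RefSeq for GRCm38.p6.

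Columns were matched to samples by name, and groups came from the titles. Counts were tested with edgeR 4.0.16 in R 4.3.3: filterByExpr with a minimum count of 10 kept 19497 genes (99.9% of counts), TMM scaled the libraries, and glmQLFit with robust dispersions fitted a mean per group (9 residual degrees of freedom, biological coefficient of variation 0.133). Each comparison was tested with glmQLFTest, adjusted by Benjamini-Hochberg, with a threshold of 0.05; intervals are 95%. The fit was tested on simulated data. The members, the 127 other cell cycle genes and the 18 cell type lists were chosen with earlier results of these data known, so counts over them are descriptions. All values are given for members past the threshold in any comparison and for the highest per kilobase of annotated exon in each role. Other cell cycle genes are named for the 4 smallest p-values among those called.

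The alternatives were DESeq2 1.42.0, its size factors, upper-quartile factors, no filter, a filter of 1 CPM in 4 libraries, the 8 libraries compared, a replicate block, a trend on GC content and length (splines with 5 degrees of freedom, 19484 genes with both values), this with the block, no 94 dB replicates 3 and 4, and each library left out. No libraries were duplicates (Pearson's r of log2 CPM within groups 0.984 to 0.991, chi-square per degree of freedom 11.4 to 48.3).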

Additional observations from a re-analysis of the deposited data

Results flagged for a closer look

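In 5 of the 102 sets of 4 libraries (34 genes at 3 noise levels) 1 library stood apart from the other 3 by more than Dixon's 95% critical value; chance flags about 1 set in 20. All 5 were high values in a replicate 2. At 94 dB, replicate 2 had 151.5 CPM for Mcm2, against 127.4 to 129.5 CPM in its group's other libraries. It had 204.8 CPM for Rrm2, against 160.9 to 168.2 CPM. It had 72.55 CPM for Ccnb2, against 60.0 to 61.85 CPM. Pcna was flagged in 105 dB replicate 2 (280.4 CPM, against 247.8 to 252.0 CPM in the rest of that group) and in 70 dB replicate 2 (247.6 CPM, against 206.1 to 210.9 CPM in the rest of that group).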

How the results depend on the processing

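No called value of a member changed sign under any alternative. Over 22 alternatives, 2065 values of single members kept their side of the threshold, 62 moved past it and 117 fell short of it; Mcm5 at 94 dB against 70 dB and Mki67 at 105 dB against 94 dB kept their calls in all of them. Counts over all genes, with all libraries, were 5085 at 94 dB against 70 dB, 316 at 105 dB against 70 dB and 3372 at 105 dB against 94 dB. Those over the 34 members were 10, 0 and 16, and those over the 126 other cell cycle genes 37, 1 and 42. After removal of the GC and length trend, 94 dB against 70 dB gave 3121 of all genes, 5 members and 18 other genes, 105 dB against 70 dB gave 3 other genes, and 105 dB against 94 dB gave 1846 of all genes and 24 other genes. Without 94 dB replicates 3 and 4 the counts were 1610, 1 and 5 at 94 dB against 70 dB, 3 other genes at 105 dB against 70 dB, and 217, 1 and 1 at 105 dB against 94 dB. Against 70 dB at 105 dB, no filter on low counts gave 523 of all genes, 3 members and 7 other genes, DESeq2 gave 891, 4 and 9, and the fit of 8 libraries gave 1 member and 3 other genes. Upper-quartile factors called 189 of all genes higher and 135 lower at 105 dB against 70 dB, where TMM called 217 and 99; at 94 dB against 70 dB they called 2329 and 2847, where TMM called 2716 and 2369, and at 105 dB against 94 dB 1702 and 1667, where TMM called 1572 and 1800. Why these counts moved, and what part the smaller number of libraries had in it, was not tested.

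Over all genes tested, replicate numbers did not pair the libraries, except weakly for replicate 2. Of 12 same-number pairs, the 3 pairs of replicate 2 had a correlation of deviations above 0.1 (0.109, 0.155 and 0.182). No other did (range of all -0.149 to 0.182), and 4 of 12 libraries correlated best with their own number. The pairs and the block used the replicate numbers, but the library names in the titles number 105 dB replicates 3 and 4 differently. By library name, 105 dB replicate 3 goes with replicate 4 of the other groups, with correlations of 0.111 (70 dB) and 0.038 (94 dB). A block by library name was not fitted. Among the members, replicate 2 was the highest of its group in 29 at 70 dB, 24 at 94 dB and 30 at 105 dB. With the replicate block the members called were 13 at 94 dB against 70 dB, 6 at 105 dB against 70 dB and 20 at 105 dB against 94 dB, and at 105 dB against 70 dB 479 of all genes and 5 other genes. When the GC and length trend was taken out under the replicate block, there were 6 members and 24 other genes at 94 dB against 70 dB, 739 of all genes, 9 members and 16 other genes at 105 dB against 70 dB, and 1995 of all genes at 105 dB against 94 dB.

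Leaving out 1 library at a time gave 3452 to 5409 of all genes, 5 to 12 members and 19 to 39 other genes at 94 dB against 70 dB. It gave 126 to 399, 0 to 2 and 1 to 4 at 105 dB against 70 dB, with the lowest total without 105 dB replicate 2. For 105 dB against 94 dB it gave 1650 to 3798, 10 to 19 and 22 to 49, with the lowest total without 94 dB replicate 3. The lowest count of a member in any library was 526; whether depth limited the calls was not tested.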

Other observations

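Of 7 CDK inhibitors tested among the other cell cycle genes, 3 rose at 94 dB against 70 dB and none fell, and 1 rose at 105 dB against 70 dB, where 13.9% and 1.11% of all genes rose in these comparisons. Cdkn2d, one of them, had 66.8, 86.2, 96.2 and 97.9 CPM at 94 dB against 55.2, 53.8, 48.1 and 53.9 CPM at 70 dB, and each 94 dB library lay above each 70 dB library. At 105 dB it had 65.2, 65.3, 62.6 and 58.04 CPM and fell against 94 dB, with a log2 difference of -0.47 (SE 0.097, adjusted p = 0.00553); without 94 dB replicates 3 and 4 together this was no longer called (adjusted p = 0.137, range over 22 alternatives 0.000299 to 0.137). Over all genes 12.2% fell at 94 dB against 70 dB, and 8.06% rose at 105 dB against 94 dB; the counts of the lists that follow are to be read beside these shares. Of 9 genes listed with the G1 cyclins and kinases, among them Cdk7, Ccnh and Mnat1, 1 fell at 94 dB against 70 dB and none rose. It was Ccnh, which is no G1 cyclin, with a log2 difference of -0.29. Of 19 pocket protein, E2F, MuvB and FOXM1 genes 2 rose and 3 fell in that comparison, and 3 rose at 105 dB against 94 dB. Rb1 had 48.2, 58.6, 49.3 and 50.6 CPM at 94 dB, below each 70 dB library (75.4, 76.7, 69.2 and 77.2 CPM), and 64.6, 72.3, 64.4 and 76.5 CPM at 105 dB, with log2 differences of -0.53 (adjusted p = 0.00025) at 94 dB against 70 dB and 0.43 (adjusted p = 0.00295) at 105 dB against 94 dB. Without 94 dB replicates 3 and 4 together Rb1 did not pass at 105 dB against 94 dB (adjusted p = 0.0683, range over 22 alternatives 3.75e-05 to 0.0683). Rb1 shares 6.8% of its exon bases with Lpar6 and 8.1% with Rcbtb2 on the opposite strand, whose reads cannot be told apart from its own without strand. Of 17 mitotic entry and checkpoint genes 1 rose and 1 fell at 94 dB against 70 dB, and 5 rose at 105 dB against 94 dB.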
